A study of Arabidopsis thaliana with 12 samples.

Results

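The effect of an amino acid exchange in EDS1 on the leaf transcriptome during effector-triggered immunity was examined by comparing 3 libraries of the Arabidopsis thaliana line R493A with 3 libraries of the line w.tEDS1, which carries EDS1 without the exchange. They are 6 of the 12 libraries of the experiment, chosen by the genotype given in the labels. The other 6 come from eds1-2, a mutant without EDS1 function, and from the accession Col-0, with 3 libraries each. All 4 genotypes were treated alike: leaves of 4-week-old plants were infiltrated with Pseudomonas syringae pv. tomato (Pst) delivering the effector AvrRps4 at an OD600 of 0.005 and sampled 4 h later. A library was made from poly(A) RNA of 4 pooled plants. No mock-treated leaves were analysed here, so the values compare infected leaves of different genotypes and do not measure a response to infection. The labels give neither the genetic background of the R493A and w.tEDS1 lines, nor the promoter that drives EDS1 in them, nor the number of independent lines, and each is treated here as 1 line.

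EDS1 is a lipase-like protein that every known TIR-type intracellular receptor needs to start defence. It forms exclusive heterodimers with PAD4 or with SAG101, and these pass the signal to the helper receptors of the ADR1 and NRG1 families. The receptor pair RRS1 and RPS4 recognises AvrRps4. Downstream of the EDS1 and PAD4 dimer, isochorismate synthase (ICS1) makes the precursor of salicylic acid, the receptors NPR1, NPR3 and NPR4 read salicylic acid through TGA transcription factors, and WRKY factors such as WRKY70 rise. EDS1 and PAD4 are also known to hold back MYC2, a master regulator of jasmonate responses. The arginine that R493A names lies in the carboxy-terminal EP domain of EDS1, in the cavity that the dimer forms.

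The EDS1 gene (AT3G48090) lies on the minus strand of chromosome 3, at 17755329 to 17758147 in build TAIR10.1. The codon that R493A names, among 623 codons, is in the last of 4 coding exons, at chr3:17755946-17755948. The reference coding sequence around it is shown because this codon is what the label of the line names, with the codon in capitals:
EDS1, codon named by R493A: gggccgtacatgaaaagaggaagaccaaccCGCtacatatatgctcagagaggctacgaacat
CGC encodes arginine in the reference. Counts per gene cannot show whether the R493A libraries carry the exchange, because a substituted base leaves the count of a gene as it is. What the counts do show is the amount of EDS1 transcript. It was 31.1, 23.5 and 19.4 CPM (counts scaled to a common library total) in the 3 R493A libraries and 124, 196 and 111 CPM in the 3 w.tEDS1 libraries. It was 3.81, 4.09 and 3.93 CPM in eds1-2 and 32.5, 72.0 and 23.2 CPM in Col-0. All R493A libraries lay below all w.tEDS1 libraries, and above all eds1-2 libraries, and 2 of them lay within the Col-0 range. EDS1 transcript was thus lower in R493A than in w.tEDS1, with a log2 fold change of -2.54 (SE 0.38, adjusted p = 0.0256, edgeR). Without any 1 of the R493A libraries, or without w.tEDS1 replicate 2 or 3, this call was lost, with an adjusted p of up to 0.176, while the log2 fold change stayed between -2.74 and -2.25. The exchange and the amount of EDS1 transcript differ together between the R493A and w.tEDS1 lines, so their parts in every difference given below cannot be told apart. EDS1B (AT3G48080), the neighbouring copy, shares 84.0% of 1859 aligned coding bases with EDS1, so reads may be split between them. It had 0.576, 0.321 and 0.206 CPM in R493A and 1.16, 2.35 and 2.53 CPM in w.tEDS1, groups that did not overlap (log2 fold change -2.42, adjusted p = 0.786).

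**Figure D1:**
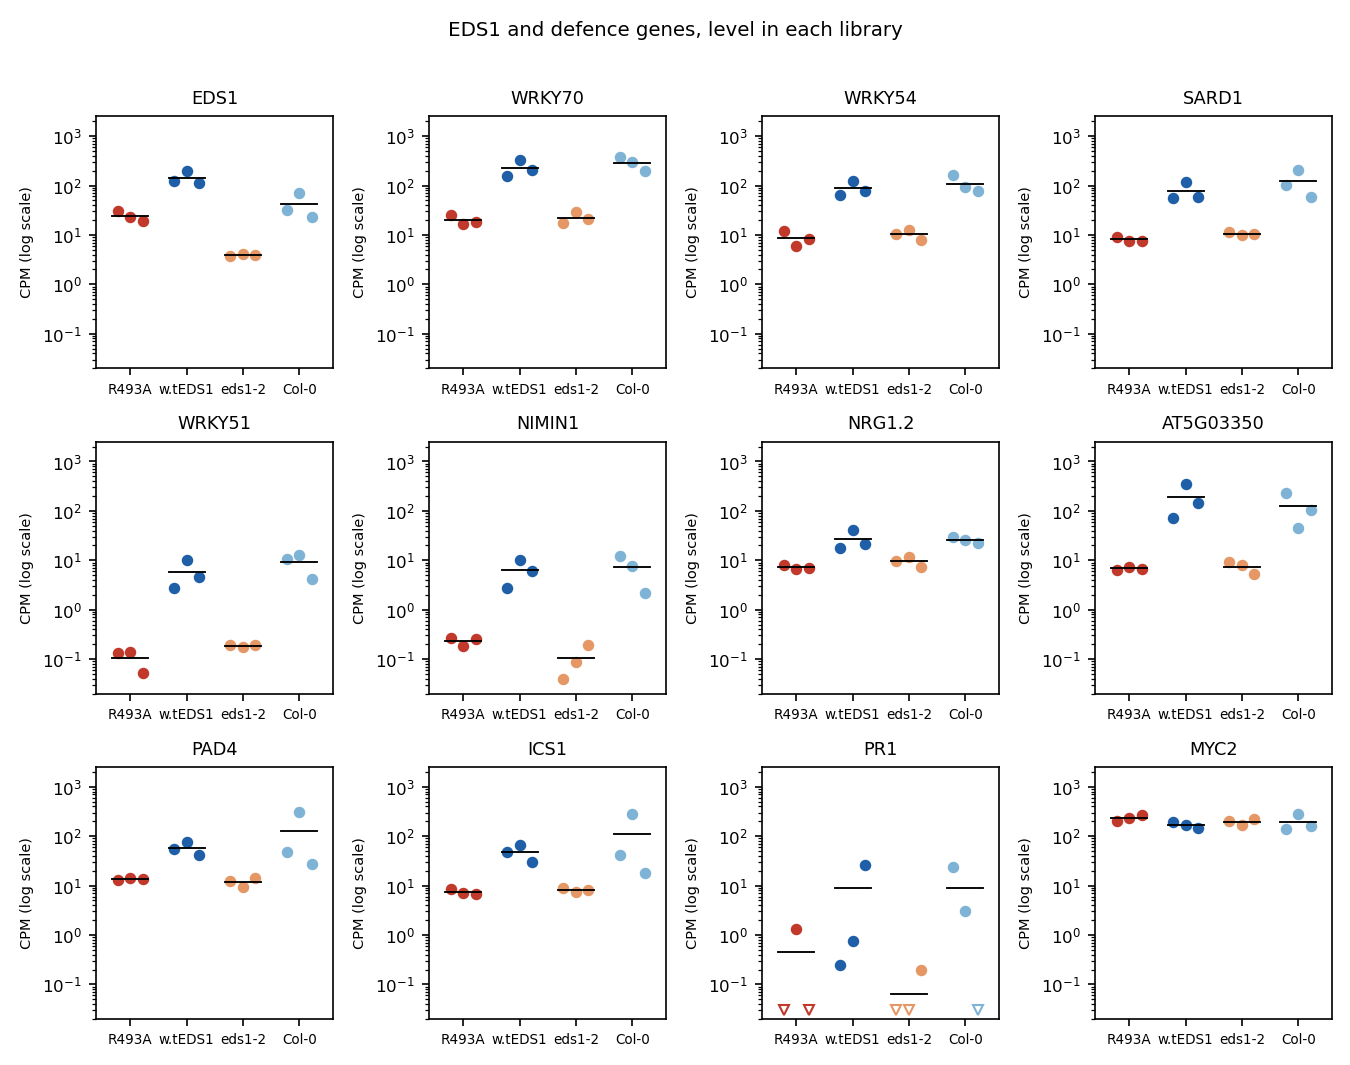
Level of EDS1, of 7 defence genes called between the lines and of PAD4, ICS1, PR1 and MYC2 in each of the 12 libraries. Each point is 1 library in CPM on a log scale, each line is the mean of 3 libraries, and open triangles at the bottom are libraries with 0 counts. EDS1 in R493A lies between w.tEDS1 and eds1-2, while WRKY70 at 16.7 to 25.7 CPM in R493A overlaps eds1-2 at 17.1 to 28.9 CPM.

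Of 18770 genes tested, 42 differed between R493A and w.tEDS1 at an adjusted p under 0.05, which is 0.224% of the genes. Of these, 39 were lower in R493A (0.208%) and 3 were higher (0.016%). The 3 R493A libraries did not overlap the 3 w.tEDS1 libraries in any of the 42, which follows largely from the call itself. Over all genes, 7.68% lay wholly below and 5.31% wholly above w.tEDS1. Absolute log2 fold changes of the 42 ran from 1.28 to 9.14. Before adjustment, 634 genes were lower and 230 were higher at p under 0.05, together 4.6% of the genes. The median log2 fold change of all genes was 0.01 after TMM scaling, which centres it near 0. In 24 of the 42 genes R493A lay outside all 9 other libraries, below them in 21 and above them in 3, against 0.618% and 0.453% of all genes. This too follows in part from the call, since the 3 w.tEDS1 libraries are among the 9. In the remaining 18, R493A overlapped the range of the 9 other libraries. By annotation, 35 of the 42 encode proteins, 5 are pseudogenes and 2 are noncoding RNAs. Of the 42, 2 start within 2 Mb of the EDS1 start, and EDS1 itself is 1 of these 2. The shares of these classes over all tested genes were not counted.

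The number of called genes depended on which libraries entered. It fell to 7, 10 and 4 without R493A replicate 1, 2 and 3, and to 36, 18 and 14 without w.tEDS1 replicate 1, 2 and 3. Only 4 genes kept their call in each of these 6 fits, namely WRKY70, AT4G16870, AT5G24240 and AT1G57650. Without the 3 Col-0 libraries, which varied most among themselves, 108 genes were called (0.575%), 103 of them lower (0.549%) and 5 higher (0.0266%), and they included all 42. Leaving out Col-0, here and below, was not planned and was added after the data were examined. With the replicate number as a block in the fit of 12 libraries, 15 were called (0.0799%), all among the 42. Blocked values below come from that fit unless the 6 libraries are named. That fit gives all genotypes the same replicate effect, though same-numbered R493A and eds1-2 libraries share only a number. With the block within the 6 libraries alone, 201 were called (2 residual degrees of freedom), and 36 of the 42 kept their call. Those that lost it there were AGL62, AT3G44205, AT4G08115, AT4G16892, AT4G16910 and UNE15. In 27 of the 39 lower genes w.tEDS1 replicate 2 had the highest level of the 3 w.tEDS1 libraries, against 6 each for replicates 1 and 3. The same count was not made over all tested genes, so whether this is particular to the 39 was not tested. The 3 w.tEDS1 libraries and R493A replicate 1 were sequenced in lane 7 of the main run, R493A replicate 3 in lane 8 of that run and R493A replicate 2 in another run, so lane and genotype are partly confounded. All 42 kept their direction with lane as a covariate, where 5 remained called: AT1G57650, AT4G04223, AT4G16870, AT5G24240 and FES1. WRKY70 had an adjusted p of 0.13 in that fit.

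**Figure D2:**
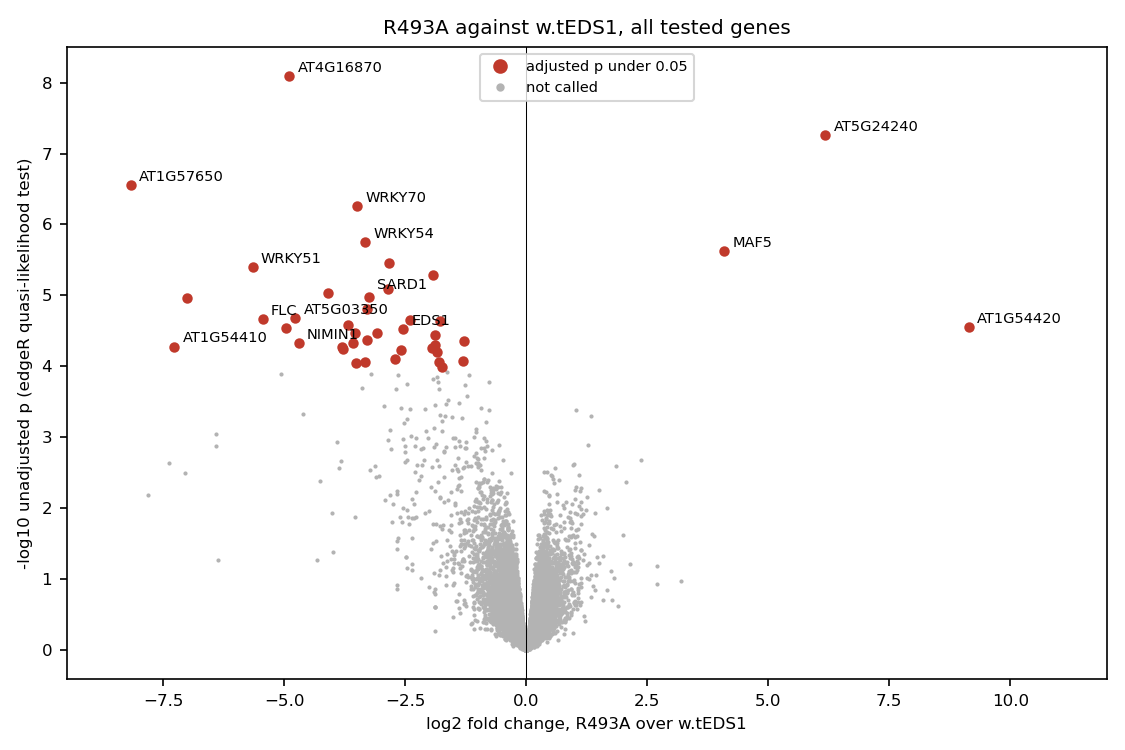
Log2 fold change of R493A over w.tEDS1 (x axis) against the negative log10 of the unadjusted edgeR p (y axis) for 18770 genes, with the 42 called genes in red. Of the red points 39 lie on the left, lower in R493A, and 3 on the right: AT5G24240, MAF5 and AT1G54420.

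Of the WRKY transcription factors of the salicylic acid response, 4 were called lower in R493A. WRKY70 (AT3G56400, chromosome 3, 20908711 to 20910623, minus strand), a regulator that promotes salicylic acid responses and restrains jasmonate ones, had 25.7, 16.7 and 18.2 CPM in R493A and 153, 323 and 205 CPM in w.tEDS1. It was lower in every R493A library than in any w.tEDS1 library, with a log2 fold change of -3.49 (SE 0.35, adjusted p = 0.0026), and its adjusted p stayed at or under 0.0467 with any 1 library left out. In eds1-2 it had 17.1, 28.9 and 21.0 CPM, so R493A and eds1-2 overlapped. Its closest paralogue WRKY54 (AT2G40750), which acts redundantly with WRKY70, had 11.9, 6.04 and 8.34 CPM in R493A and 63.7, 125 and 76.2 CPM in w.tEDS1. The groups did not overlap, and the log2 fold change was -3.33 (SE 0.37, adjusted p = 0.00658). Without R493A replicate 3 its adjusted p was 0.0822.

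WRKY51 (AT5G64810) and WRKY50 (AT5G26170), 2 factors known to repress jasmonate responses when oleic acid is low, were near the detection limit in R493A. WRKY51 had 0.133, 0.137 and 0.0515 CPM there, from 7 counts in all, and 2.80, 10.06 and 4.49 CPM in w.tEDS1, from 385 counts (log2 fold change -5.66, SE 0.68, adjusted p = 0.00933). WRKY50 had 0.221, 0.183 and 0.103 CPM in R493A and 1.06, 3.00 and 2.01 CPM in w.tEDS1 (log2 fold change -3.52, adjusted p = 0.041). In both the lines did not overlap, and both calls were lost without any 1 of the R493A libraries, with adjusted p of up to 0.103 for WRKY51 and 0.282 for WRKY50. Without w.tEDS1 replicate 2 the log2 fold change of WRKY51 was -4.99. WRKY50 also lost its call without w.tEDS1 replicate 2 or 3 and with the replicate block (adjusted p = 0.0587).

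The 23 listed genes of the salicylic acid response had a median log2 fold change of -2.29, against 0.01 over all genes. WRKY70, WRKY54, WRKY51 and WRKY50 were the 4 that passed the test (17.4%), all lower, against 0.208% of all genes, and none was higher. In 17 of the 23 the R493A libraries all lay below the w.tEDS1 libraries, against 7.68% of all genes. The count of lower genes among the 23 depended on the fit. It was 12 without Col-0, 12 with DESeq2, 11 in the 6 libraries alone and 15 with the replicate block within those 6. Over all genes these fits called 103, 146, 73 and 177 lower. Among the 23, 3 were called with the replicate block in 12 libraries and between 1 and 5 with 1 library left out. With lane as a covariate none of the 23 passed the edgeR test. LURP1, a gene needed for basal defence against an oomycete, was just outside the threshold with 6.95, 7.83 and 2.88 CPM in R493A and 64.3, 326 and 203 CPM in w.tEDS1 (adjusted p = 0.0527). It had 371, 64.4 and 68.3 CPM in Col-0. Its adjusted p was 0.0136 without Col-0 and 0.0759 with the replicate block. LURP1 passed in 6 of 18 other settings. PR1, the classical late marker of this pathway, was at 0, 1.33 and 0 CPM in R493A and 0.241, 0.740 and 26.3 CPM in w.tEDS1. The groups overlapped and 1 library, w.tEDS1 replicate 3, held most of the PR1 signal (log2 fold change -4.32, adjusted p = 0.999, and -0.14 without that library or -10.63 without R493A replicate 2). Not all WRKY members of the list had large values, since WRKY53 had a log2 fold change of -0.07 and WRKY30 one of 0.21. WRKY38 and WRKY46 were not called with 12 libraries (adjusted p = 0.314 and 0.499). Without Col-0 their log2 fold changes were -7.38 and -1.54 (adjusted p = 0.00606 and 0.0294).

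Salicylic and pipecolic acid metabolism and its control were described by 15 tested genes, with a median log2 fold change of -1.32. Of these, 1 passed the test (6.67%), against 0.208% of all genes called lower. That gene was SARD1 (AT1G73805, chromosome 1, 27744790 to 27749248, minus strand), a transcription factor that activates ICS1. It had 9.08, 7.65 and 7.67 CPM in R493A and 55.7, 119 and 58.0 CPM in w.tEDS1, without overlap (log2 fold change -3.25, SE 0.44, adjusted p = 0.0154). Without any 1 of the R493A libraries its call was lost, with an adjusted p of up to 0.128. ICS1, the enzyme that SARD1 controls, had 8.41, 7.14 and 6.79 CPM in R493A and 47.0, 64.8 and 30.4 CPM in w.tEDS1. These groups did not overlap either, and the log2 fold change of -2.67 (95% interval -4.39 to -0.94) had an adjusted p of 0.496. ICS1 ranged from 17.7 to 279 CPM among the Col-0 libraries, and in the unplanned fit without them its adjusted p was 0.00195. With the replicate block it was 0.548.

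PBS3, which turns isochorismate into a salicylic acid precursor, had 12.6, 8.43 and 7.57 CPM in R493A and 54.3, 65.6 and 47.8 CPM in w.tEDS1. Its adjusted p was 0.212 with Col-0 in the fit, 0.00171 without and 0.19 with the replicate block. PBS3 passed in 4 of 18 other settings, the fit without Col-0 among them. FMO1, which makes the mobile signal N-hydroxypipecolic acid, had 0.620, 0.229 and 0.206 CPM in R493A and 1.45, 2.05 and 3.37 CPM in w.tEDS1, with a log2 fold change of -2.66 (adjusted p = 0.946), which was -3.35 without R493A replicate 1. Of the 15 genes, 5 were called lower with DESeq2, 5 in the 6 libraries alone and 6 with the replicate block within those 6. The count was 1 with the block in 12 libraries and 0 or 1 with 1 library left out. Without Col-0, 5 of the 15 genes were called lower, against 0.549% of all genes: ICS1, PBS3, SARD1, DMR6 and DLO1. DMR6 and DLO1 encode hydroxylases that break salicylic acid down, so that list joins genes that make and genes that remove the hormone. BSMT1, which methylates salicylic acid, was 1 of 3 members with a positive value, at 0.78 on the log2 scale (adjusted p = 0.999), and its groups overlapped.

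Among the 12 genes of salicylic acid perception, 1 passed the test (8.33%), against 0.208% of all genes called lower. NIMIN1 (AT1G02450), which binds NPR1 and dampens it, had 0.266, 0.183 and 0.257 CPM in R493A and 2.75, 9.97 and 6.04 CPM in w.tEDS1 (log2 fold change -4.70, SE 0.74, adjusted p = 0.0305). Its groups did not overlap, but its call was lost without any 1 of the R493A libraries or w.tEDS1 replicate 2 or 3, with an adjusted p of up to 0.201, and with the replicate block (adjusted p = 0.0797). The receptor NPR4 had 12.2, 11.997 and 13.3 CPM in R493A and 21.9, 35.0 and 27.6 CPM in w.tEDS1, just outside the threshold (adjusted p = 0.0527). NPR4 passed in 6 of 18 other settings. The 6 TGA factors TGA1 to TGA6 had log2 fold changes between -0.05 and 0.13, and the 2 groups overlapped in each. The list's median was -0.24. It held 3 genes called lower with DESeq2, 3 in the 6 libraries alone and 3 with the replicate block within those 6. The count was 0 with the block in 12 libraries and from 0 to 2 with 1 library left out.

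NPR receptors act on promoters through TGA factors, which bind the motif TGACG. The upstream sequences of 4 genes that fell are therefore shown, picked among those that hold this motif. They are the 250 bases before the annotated start on the gene's own strand, read from the RefSeq genome TAIR10.1 at chr3:20910624-20910873 (WRKY70, minus strand), chr5:25907997-25908246 (WRKY51, plus strand), chr1:27749249-27749498 (SARD1, minus strand) and chr5:816671-816920 (AT5G03350, minus strand), with TGACG on either strand in capitals:
WRKY70: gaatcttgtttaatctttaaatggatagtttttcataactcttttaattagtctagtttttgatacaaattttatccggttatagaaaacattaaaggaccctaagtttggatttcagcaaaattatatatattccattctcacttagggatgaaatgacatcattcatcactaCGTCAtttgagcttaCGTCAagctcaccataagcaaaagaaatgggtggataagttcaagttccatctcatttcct
WRKY51: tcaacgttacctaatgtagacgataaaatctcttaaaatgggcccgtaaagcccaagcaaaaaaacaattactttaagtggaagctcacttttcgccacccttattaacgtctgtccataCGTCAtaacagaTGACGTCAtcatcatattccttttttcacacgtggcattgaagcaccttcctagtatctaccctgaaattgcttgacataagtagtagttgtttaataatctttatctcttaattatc
SARD1: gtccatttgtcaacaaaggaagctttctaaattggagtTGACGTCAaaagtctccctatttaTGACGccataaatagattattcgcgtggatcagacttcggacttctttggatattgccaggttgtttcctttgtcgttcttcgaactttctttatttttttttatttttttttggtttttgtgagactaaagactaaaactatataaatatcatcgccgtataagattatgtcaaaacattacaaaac
AT5G03350: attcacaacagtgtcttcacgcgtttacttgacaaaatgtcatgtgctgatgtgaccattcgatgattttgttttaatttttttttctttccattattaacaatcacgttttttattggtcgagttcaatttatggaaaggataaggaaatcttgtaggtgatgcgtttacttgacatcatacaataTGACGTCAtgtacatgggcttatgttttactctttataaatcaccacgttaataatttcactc
WRKY70 and AT5G03350 hold 2 matches each, and WRKY51 and SARD1 hold 3 each, which overlap where the motif stands on both strands. Of the 39 genes lower in R493A, 16 hold TGACG on either strand in this window, which is 41%, against 19.6% of 18647 tested genes with such a window. The W-box, searched as TTGACC or TTGACT on either strand, is in 12 of the 39 (30.8%), against 28.5% of all. WRKY54 and NIMIN1 hold neither motif in this window. A match is only a description of these letters, and binding was not measured.

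The EDS1 module itself, with its partners, helper receptors and the receptors of AvrRps4, was represented by 13 genes with a median log2 fold change of -0.61. EDS1 and NRG1.2 were the 2 that passed the test (15.4%), against 0.208% of all genes called lower. Of the 13, 3 were called lower with DESeq2, 2 in the 6 libraries alone and 4 with the replicate block within those 6. The count was 1 with the block in 12 libraries and from 0 to 2 with 1 library left out. NRG1.2 (AT5G66910), a helper receptor that acts with the EDS1 and SAG101 dimer, had 8.06, 6.78 and 6.95 CPM in R493A and 17.9, 41.9 and 21.2 CPM in w.tEDS1 (log2 fold change -1.89, SE 0.30, adjusted p = 0.0311). Its call was lost without any 1 of the R493A libraries or w.tEDS1 replicate 3, with an adjusted p of up to 0.197, and with the replicate block (adjusted p = 0.0626). Its tandem neighbour NRG1.1 had 25.1, 24.0 and 25.8 CPM in R493A and 30.6, 21.1 and 29.4 CPM in w.tEDS1, which overlapped (log2 fold change -0.11).

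PAD4, the partner of EDS1 in basal resistance, had 12.8, 14.0 and 13.7 CPM in R493A and 55.0, 75.7 and 42.5 CPM in w.tEDS1. These groups did not overlap, with a log2 fold change of -2.09 (95% interval -3.62 to -0.57) and an adjusted p of 0.691. PAD4 reached 302 CPM in Col-0 replicate 2, and in the unplanned fit without Col-0 its adjusted p was 0.00325. With the replicate block it was 0.869. PAD4 passed in 3 of 18 other settings, the fit without Col-0 among them. SAG101, the other partner, had 26.7, 21.3 and 20.8 CPM in R493A and 29.0, 32.3 and 30.1 CPM in w.tEDS1 (log2 fold change -0.41, 95% interval -0.88 to 0.06, adjusted p = 0.999). The receptor genes RPS4, RRS1, RPS4B and RRS1B had overlapping groups and log2 fold changes between -0.21 and 0.12.

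**Figure D3:**
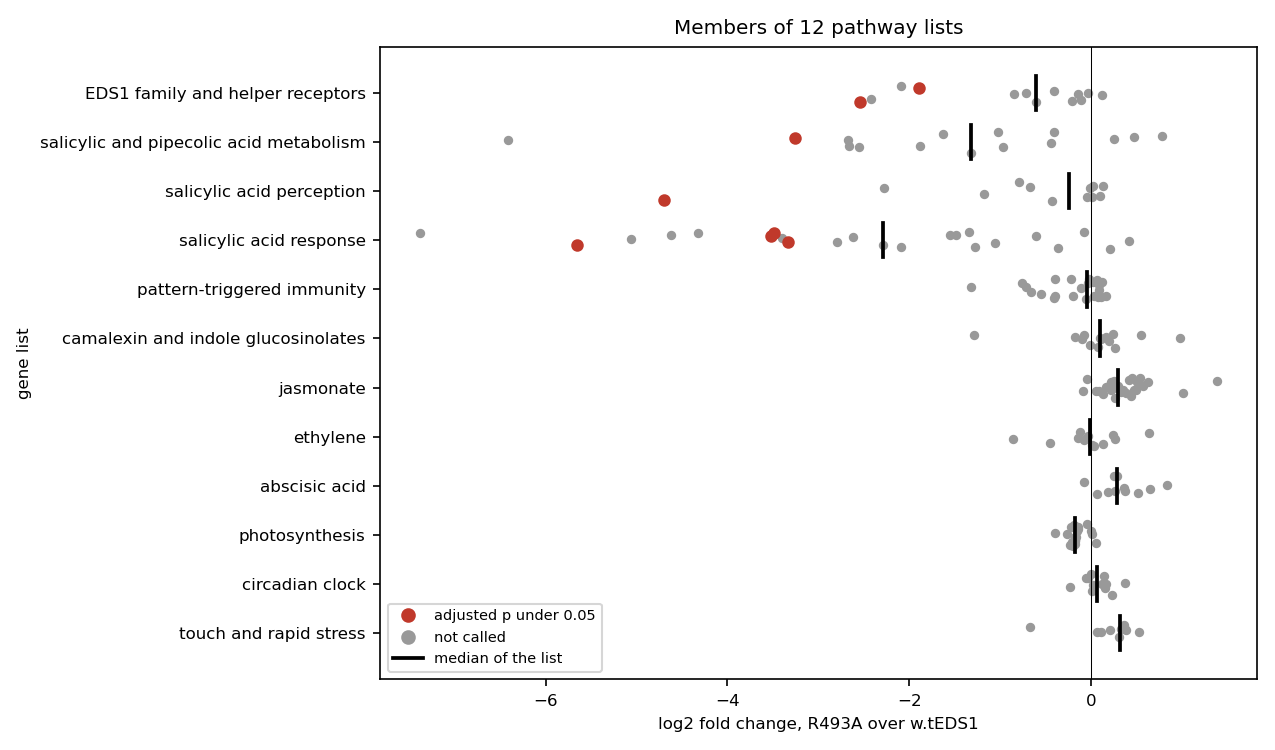
Log2 fold change of R493A over w.tEDS1 (x axis) for every tested member of 12 pathway lists (y axis), with called genes in red and the median of each list as a black bar. The salicylic acid response list has the lowest median, -2.29, and all 8 called genes of the lists lie left of 0.

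Other genes called lower belong to none of the lists, and those not covered by the naming rule were chosen after their values were seen. AT5G03350, a legume lectin-like protein, had 6.29, 7.46 and 6.79 CPM in R493A and 71.0, 349 and 141 CPM in w.tEDS1 (log2 fold change -4.77, SE 0.69, adjusted p = 0.0237). R493A was uniformly low and w.tEDS1 replicate 2 was far above the other w.tEDS1 libraries, and without that library the log2 fold change was -3.95. Its call was lost without any 1 of the R493A libraries or w.tEDS1 replicate 3, with an adjusted p of up to 0.168, and with the block (adjusted p = 0.073). The receptor-like protein gene RLP34 had 3.67, 4.21 and 3.86 CPM in R493A and 20.9, 84.2 and 35.8 CPM in w.tEDS1 (adjusted p = 0.0305). RLP38, of the same family, had 3.05, 4.62 and 4.07 CPM in R493A and 14.2, 43.4 and 18.9 CPM in w.tEDS1 (adjusted p = 0.0398). Both RLP genes lost their calls without any 1 of the R493A libraries or w.tEDS1 replicate 2 or 3, with adjusted p of up to 0.206 for RLP34 and 0.274 for RLP38, and with the replicate block it was 0.073 and 0.0766. Without w.tEDS1 replicate 2 the log2 fold change was -2.86 for RLP34 and -2.08 for RLP38, against -3.58 and -2.70 with all libraries.

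AT1G72910, which encodes a truncated receptor with a TIR domain, had 3.497, 7.19 and 4.68 CPM in R493A and 25.8, 62.6 and 23.1 CPM in w.tEDS1 (log2 fold change -2.86, SE 0.37, adjusted p = 0.0154). The calmodulin-like EF-hand gene AT2G41090 fell to 60.4, 61.8 and 54.5 CPM in R493A, against 152, 258.3 and 258.4 CPM in w.tEDS1 (log2 fold change -1.92, adjusted p = 0.0107). SIB1, a sigma factor binding protein that also partners WRKY33, had 5.80, 3.25 and 3.76 CPM in R493A and 15.7, 40.6 and 21.3 CPM in w.tEDS1 (adjusted p = 0.0311). In each of these 3 genes the groups did not overlap, and each call was lost with 1 library left out, AT1G72910 without R493A replicate 1 or 3 (adjusted p of up to 0.123), AT2G41090 without any R493A library (up to 0.103) and SIB1 without any R493A library or w.tEDS1 replicate 2 or 3 (up to 0.228). SIB1 was not called with the replicate block either (adjusted p = 0.0759), and without w.tEDS1 replicate 2 the log2 fold change was -2.26 for AT1G72910.

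The small stress protein AT3G22235, of the cysteine-rich transmembrane module family, had 13.4, 10.8 and 13.8 CPM in R493A and 74.6, 108 and 142 CPM in w.tEDS1 (log2 fold change -3.09, adjusted p = 0.0267). The hydrolase-like gene AT5G24200 had 0.885, 1.14 and 0.360 CPM in R493A and 8.01, 22.2 and 11.2 CPM in w.tEDS1 (log2 fold change -4.09, adjusted p = 0.0154). AT5G55450, a lipid transfer-like protein, had 1.51, 1.74 and 0.772 CPM in R493A and 6.85, 17.0 and 16.1 CPM in w.tEDS1 (log2 fold change -3.30, adjusted p = 0.0305). AT1G19960, annotated as a transcription factor, was also lower in every R493A library, with a log2 fold change of -3.30 (adjusted p = 0.0209). All 4 lost their calls without any 1 of the R493A libraries, with an adjusted p of up to 0.19 (AT5G55450). With the replicate block it was 0.0759 for AT3G22235, 0.0694 for AT5G55450 and 0.0626 for AT1G19960. AT5G26690, a heavy metal-associated domain protein, had 2 counts in R493A and 316 in w.tEDS1, a ratio of w.tEDS1 to R493A of 155 with a 95% counting interval of 42.6 to 1286. Its adjusted p was 0.0154, and up to 0.128 without any 1 of the R493A libraries, where the call was lost. It had 0.118, 0.043 and 0.0479 CPM in eds1-2, so R493A and eds1-2 overlapped.

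Jasmonate genes were not called in either direction by edgeR, DESeq2 or limma-voom in the fits of 12 libraries. With the replicate block within the 6 libraries alone 1 was called higher, VSP1, a storage protein named here after its values were seen (log2 fold change 1.28, adjusted p = 0.00644). VSP1 had 58.6, 227 and 87.4 CPM in R493A and 29.4, 77.2 and 35.6 CPM in w.tEDS1, which overlapped, and its adjusted p with 12 libraries was 0.934. Of 31 listed genes, 29 had a positive log2 fold change (93.5%, against 51.3% of all genes), with a median of 0.30, and 2 had an unadjusted p under 0.05. In 5 of the 31 the R493A libraries all lay above the w.tEDS1 libraries, against 5.31% of all genes. MYC2 had 206, 239 and 265 CPM in R493A and 192, 169 and 148 CPM in w.tEDS1, which did not overlap (log2 fold change 0.48, 95% interval -0.05 to 1.01, adjusted p = 0.999). VSP2, a storage protein that MYC2 induces, had 123, 301 and 197 CPM in R493A and 95.9, 83.2 and 130 CPM in w.tEDS1 and overlapped by 1 library (log2 fold change 1.01, adjusted p = 0.491). Members of a hormone pathway measured in the same 6 libraries are not independent, so the number of positive members is a description.

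The remaining lists held no called gene in the edgeR fit with 12 libraries, with an unadjusted p under 0.05 for 3 genes of pattern-triggered immunity, 2 of camalexin and indole glucosinolates and 0 of the others. Limma-voom called 0 of them as well, and DESeq2 called 1 gene of pattern-triggered immunity lower and 1 of camalexin and indole glucosinolates higher. With the replicate block within the 6 libraries the calls were RLP23, a receptor-like protein, lower (adjusted p = 0.00689) and MYB34 higher (adjusted p = 0.03). The median log2 fold change was -0.04 for 24 genes of pattern-triggered immunity, 0.10 for 14 genes of camalexin and indole glucosinolates and -0.01 for 12 ethylene genes. It was 0.29 for 11 abscisic acid genes, of which 10 were positive, and 0.32 for 10 touch and rapid stress genes, of which 9 were positive. Without w.tEDS1 replicate 2 the abscisic acid median was 0.085, with 7 positive, and the touch median 0.11, with 7 positive, and without R493A replicate 1 the touch median was 0.13, with 6 positive. For 20 photosynthesis genes it was -0.17, with 17 negative, against 48.7% of all genes, and for 12 clock genes it was 0.07. SOBIR1, a co-receptor of receptor-like proteins, had 113, 109 and 120 CPM in R493A and 155, 217 and 188 CPM in w.tEDS1, without overlap (log2 fold change -0.71). Its adjusted p was 0.243 with Col-0 in the fit, 0.0495 without and 0.451 with the replicate block. MYB34, a regulator of indole glucosinolates, was the listed gene with the lowest p among those higher in R493A, with 36.8, 39.1 and 37.9 CPM in R493A and 17.1, 25.6 and 15.2 CPM in w.tEDS1 (log2 fold change 0.98, adjusted p = 0.318).

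Markers of the leaf's cell types were compared because, in whole leaves, fewer cells of a type and less RNA per cell cannot be told apart. None of the tested markers was called by edgeR, DESeq2 or limma-voom, and 1 marker of dividing cells had an unadjusted p under 0.05. The summed level of 5 mesophyll markers was 21249 to 23618 CPM in R493A and 23283 to 26512 CPM in w.tEDS1, and that of 6 guard cell markers was 95.1 to 117 CPM in R493A and 74.7 to 124 CPM in w.tEDS1. For 5 phloem markers it was 609 to 697 CPM in R493A and 618 to 776 CPM in w.tEDS1, and for 5 markers of dividing cells 1.92 to 2.39 CPM in R493A and 2.27 to 3.40 CPM in w.tEDS1. No marker was at 0 in either line, and the part of cell composition in the differences given here was not tested.

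A second set of called genes set the R493A line apart from all 9 other libraries, eds1-2 included. One of them was AT1G54410 (chromosome 1, 20309473 to 20310850, minus strand), which encodes a small dehydrin, a protein made under dehydration and cold. It had 421, 15 and 5 counts in the R493A libraries, or 18.6, 0.687 and 0.257 CPM, and 20816, 24817 and 20678 counts in w.tEDS1, or 1005, 1081 and 968 CPM. The other lines were at the w.tEDS1 level, from 877 to 1161 CPM in eds1-2 and from 943 to 1158 CPM in Col-0. The log2 fold change was -7.27 (SE 1.16, adjusted p = 0.0311), and R493A replicate 1 stood well above replicates 2 and 3. Without replicate 1 the log2 fold change was -11.03 (adjusted p = 6.23e-07), and without replicate 2 or 3 of R493A, or any w.tEDS1 library, the adjusted p was between 0.067 and 0.113. With the replicate block it was 0.0759.

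The gene head to head with the dehydrin, AT1G54420, lies 768 bases away on the other strand and encodes an uncharacterized protein. It had 68, 61 and 75 counts in R493A and no count in any of the 9 other libraries, which allows up to 3 counts over the 3 w.tEDS1 libraries, or 0.0461 CPM. AT1G54420 was therefore at least 69.3-fold higher in R493A than in w.tEDS1 with that floor over the group (adjusted p = 0.0256, and 0.241 with the replicate block). Its call was lost without any 1 of the R493A libraries or w.tEDS1 replicate 2 or 3, with an adjusted p of up to 0.168. The next pseudogene, AT1G54430, had 4 counts in R493A and 0 in all other libraries. The tested neighbours on either side, from TAF6B to AT1G54460, had log2 fold changes between -0.21 and 0.20.

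**Figure D4:**
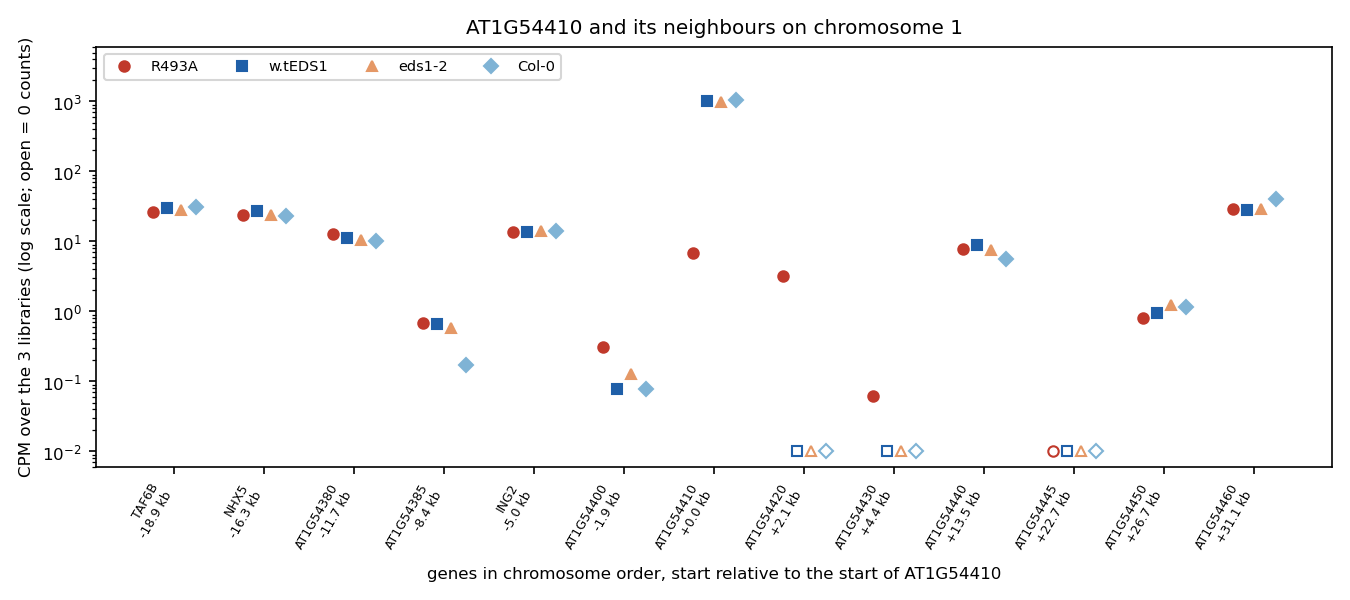
CPM over the 3 libraries of each genotype (y axis, log scale) for AT1G54410 and 6 genes on either side in chromosome order (x axis, start relative to that of AT1G54410 in kb), with open symbols for 0 counts. R493A is below the other 3 genotypes at AT1G54410 and is the only one with counts at AT1G54420 and AT1G54430.

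The most significant gene of the comparison was AT4G16870 (chromosome 4, 9483955 to 9488397, minus strand), a pseudogene beside RPP4 in the cluster of TIR-type receptor genes that also holds SNC1. It had 3.05, 2.24 and 1.44 CPM in R493A and 51.9, 78.4 and 71.9 CPM in w.tEDS1, with 50.2 to 82.4 CPM in eds1-2. The log2 fold change was -4.89 (SE 0.33, adjusted p = 0.000151), and its largest adjusted p with 1 library left out was 0.00169. In the same cluster the noncoding AT4G16892 (log2 fold change -1.89, adjusted p = 0.0275) and the pseudogene AT4G16910 (-2.41, adjusted p = 0.0237) were lower in R493A, and both lost their calls when any 1 of the 6 libraries was left out. The receptor genes RPP4 and SNC1 had log2 fold changes of -0.55 and -0.33. Genes of this cluster resemble one another, and reads without a unique place are set apart in the table, so their counts are uncertain. With the replicate block the adjusted p was 0.0739 for AT4G16892 and 0.0725 for AT4G16910.

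AT5G24240 (chromosome 5, 8230916 to 8234150, minus strand), a phosphatidylinositol 4-kinase gamma-like protein, was 1 of 3 genes higher in R493A. It had 30.4, 26.5 and 34.5 CPM in R493A and 0.579, 0.348 and 0.328 CPM in w.tEDS1, while eds1-2 had 0.785 to 2.80 CPM. The log2 fold change was 6.17 (SE 0.49, adjusted p = 0.000521), and the call held with any 1 library left out (adjusted p of at most 0.00874). Among its 6 neighbours on either side, AT5G24200 was called lower, with the values given above, and AT5G24210 had a log2 fold change of -1.39 (adjusted p = 0.106). The other tested neighbours had log2 fold changes between -0.40 and 0.44. AT1G57650, annotated as an ATP-binding protein, had 1 count in R493A and 397 in w.tEDS1, a ratio of w.tEDS1 to R493A of 390 with a 95% counting interval of 69.5 to 15431 (adjusted p = 0.00175). It had 3.38 to 7.19 CPM in eds1-2 and 6.71 to 19.3 CPM in Col-0. Its call held with any 1 library left out (adjusted p of at most 0.0268), and without R493A replicate 1, which held the 1 count, the log2 fold change was -10.07. The tested genes among its 6 neighbours on either side had log2 fold changes between -0.08 and 0.26.

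FLC, FES1 and MAF5 were also among the genes outside the 9 other libraries, named together after their values were seen and without a list or a test of their shared role. FLC (AT5G10140), a MADS-box repressor of flowering, had 1 count in R493A and 61 in w.tEDS1, a ratio of w.tEDS1 to R493A of 59.9 with a 95% counting interval of 10.4 to 2403 (adjusted p = 0.0237). FES1, which helps to activate FLC when FRIGIDA is active, had 0.576, 2.38 and 0.154 CPM in R493A and 11.5, 9.93 and 10.7 CPM in w.tEDS1 (log2 fold change -3.34, adjusted p = 0.0405). MAF5 (AT5G65080), a relative of FLC, was higher, with 14.0, 14.2 and 19.5 CPM in R493A and 0.821, 1.57 and 0.374 CPM in w.tEDS1 (log2 fold change 4.09, SE 0.47, adjusted p = 0.00749). R493A did not overlap the other 9 libraries in any of these 3 genes. The neighbours of MAF5 in its tandem array did not pass the test: AGL31, MAF3 and MAF4 had log2 fold changes of -0.04, -0.15 and 1.13, and MAF4 had an adjusted p of 0.578. With single libraries left out the adjusted p reached 0.155 for FLC (lost without any R493A library or w.tEDS1 replicate 2), 0.274 for FES1 (kept only without R493A replicate 2, at 0.00169) and 0.0551 for MAF5 (lost without R493A replicate 3). With the replicate block it was 0.0587 for FLC and 0.0797 for FES1. The log2 fold change was -7.35 without R493A replicate 1 for FLC, against -5.45 with all libraries, -4.82 without R493A replicate 2 for FES1 and 4.72 without w.tEDS1 replicate 2 for MAF5.

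Further genes below all 9 other libraries in R493A were at low levels. The MADS-box gene AGL62 had 4 counts in R493A and 51 in w.tEDS1, the inositol phosphatase gene 5PTase14 had 8 and 118, and the pseudogenes AT1G36600 and AT4G08115 had 3 against 105 and 3 against 47. The ratio of w.tEDS1 to R493A was 34.4 for AT1G36600 (95% counting interval 11.4 to 169) and 15.4 for AT4G08115 (4.95 to 77.2). AT3G05410, a PsbP-like protein, was lower by less, with 1.73, 2.98 and 1.60 CPM in R493A and 7.29, 6.71 and 7.82 CPM in w.tEDS1 (adjusted p = 0.0237). All 5 lost their calls with some library left out, and with the replicate block, where the adjusted p was 0.0797 for AGL62, 0.0909 for 5PTase14, 0.0739 for AT1G36600 and AT3G05410 and 0.1 for AT4G08115. The log2 fold change was -5.05 without R493A replicate 1 for 5PTase14 and -5.76 for AT1G36600, against -3.80 and -4.96 with all libraries, and -4.69 without R493A replicate 3 for AT4G08115, against -3.78. Whether these levels go with the exchange in EDS1 or with other differences between the lines cannot be told apart from 1 line each.

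**Figure D5:**
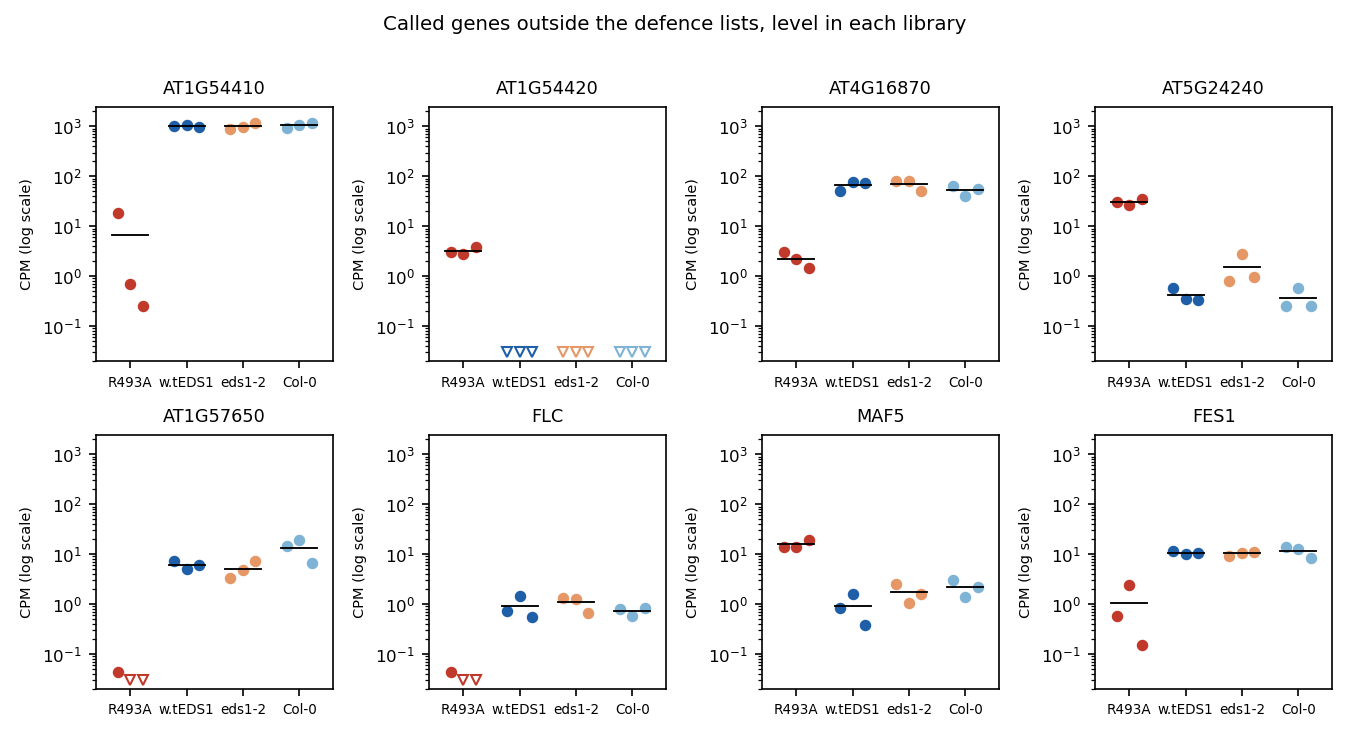
Level in each of the 12 libraries of 8 called genes outside the pathway lists, in CPM on a log scale, with lines for means above the lowest tick and open triangles for 0 counts. R493A lies apart from w.tEDS1, eds1-2 and Col-0 in all 8 genes, above them in AT1G54420, AT5G24240 and MAF5.

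Beyond the 3 called genes, the genes higher in R493A with the lowest p did not pass the test. The first of these was 4CL8, a 4-coumarate-CoA ligase-like gene, with 4.87, 4.90 and 4.22 CPM in R493A and 1.74, 2.48 and 2.67 CPM in w.tEDS1 (adjusted p = 0.113). AT5G24155, an oxidoreductase-like gene, had 12.3, 18.1 and 16.2 CPM in R493A and 5.65, 7.32 and 5.57 CPM in w.tEDS1 (adjusted p = 0.129). AT5G18920, AT3G19550, APT5 and CSLA01 had adjusted p between 0.235 and 0.318 and did not overlap between the lines, with log2 fold changes between 0.97 and 2.38.

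The R493A line was also set against eds1-2, which shows where the line with the exchange differed from a line without EDS1 function. This comparison uses the same R493A libraries as the one with w.tEDS1. It called 7 of 18770 genes (0.0373%), 2 higher in R493A (0.0107%) and 5 lower (0.0266%). Before adjustment 2.15% of the genes had a p under 0.05, 50.1% had a positive and 49.9% a negative log2 fold change. The 2 higher were AT5G24240 (log2 fold change 4.33, adjusted p = 0.00316) and MAF5 (3.19, adjusted p = 0.0426). The 5 lower were AT4G16870 (-4.98, adjusted p = 0.000129), AT1G57650 (-7.90, adjusted p = 0.00316), and FLC, AGL62 and AT3G05410, each with an adjusted p of 0.0426. FLC, AGL62 and AT3G05410 were not called against eds1-2 without Col-0, with adjusted p of 0.0768, 0.0721 and 0.0579. MAF5, FLC and AGL62 lost their calls with any 1 of the 6 libraries left out, with adjusted p of up to 0.248, 0.191 and 0.244, and AT3G05410 lost its call in all such fits but the one without R493A replicate 2 (up to 0.276). AT4G16870, AT5G24240 and AT1G57650 kept theirs, with adjusted p of at most 0.00275, 0.0373 and 0.0469. Without R493A replicate 1 the log2 fold change was -7.60 for FLC, against -5.70 with all libraries, and -9.80 for AT1G57650, and without eds1-2 replicate 2 it was 5.11 for AT5G24240.

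None of the genes of the 3 salicylic acid lists was called by edgeR between R493A and eds1-2, and 0 of them had an unadjusted p under 0.05. Over all genes the shares were 0.0373% and 2.15%, so counts of 0 in lists of this size are near these shares. For WRKY70 the log2 fold change was -0.15 (95% interval -0.85 to 0.56), for WRKY54 -0.23 (-1.001 to 0.54) and for SARD1 -0.38 (-1.29 to 0.53), each with an adjusted p of 1. The median over the 23 salicylic acid response genes was -0.02, and single members ran from -0.74 to 2.84. The 12 perception genes ran from -0.11 to 1.17, and the 15 genes of salicylic and pipecolic acid metabolism from -0.53 to 0.62. A p that misses the threshold does not show that the lines are alike, and the intervals leave room for differences of up to 1.29 on the log2 scale in SARD1. EDS1 itself had a log2 fold change of 2.65 over eds1-2 (95% interval 1.77 to 3.52), with an adjusted p of 0.057 in 12 libraries and 0.00556 without Col-0.

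Depth was similar across the lines. Gene counts summed to 19273912 to 22694032 per R493A library and to 20472553 to 22133552 per w.tEDS1 library, and entries that name no gene held 11.9% to 22.9% of the column totals in R493A and 9.69% to 15.8% in w.tEDS1. Nothing in the labels says that the pools came from separate plantings, so p-values measure the spread between these pools.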

How the data were processed

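Poly(A) RNA from infected leaves was measured in 12 libraries, 3 per genotype. The deposited table holds raw counts of reads per gene, made by the authors; TopHat2, HTSeq, limma and the build TAIR10 are named per the submitters' processing notes, and their versions and settings are not given in the sources used here. Reads of overlapping or antisense genes cannot be told apart, since the TruSeq v2 kit does not mark strand.

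The table has 32678 genes and 5 summary entries, which were left out. Genes were kept by filterByExpr (18770), scaled by TMM and fitted in R 4.3.3 with edgeR 4.0.16 (quasi-likelihood, genotype as the only term, 12 libraries). Benjamini-Hochberg adjustment ran over the 18770 genes, and "called" means an adjusted p under 0.05 in this edgeR test. Fold changes are log2 with a prior count of 0.125, and levels are TMM-scaled CPM. Counting intervals are exact and at 95%. Like the floor of 3 counts they hold counting error alone, because PCR copies without molecular identifiers are counted more than once. The fit was tested on simulated data.

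The comparison, the lists (216 genes in 12 pathway and 4 marker lists) and the named genes were chosen with earlier results of these data known. Of the list members, 4 did not pass the filter: UGT74F1, CYP82C2, CYCB1;1 and CDKB1;1. Named genes are 10 fixed ones, up to 12 per direction with the largest change among called genes of at least 5 CPM, genes of lowest p where fewer than 10 were called in a direction, and up to 3 called members per list.

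Same-numbered R493A and w.tEDS1 libraries deviated together from their group means (correlations over genes of 0.105, 0.381 and 0.139). R493A replicate 3 correlated more with w.tEDS1 replicate 1, at 0.362. By the rule that every same-number value be over 0.1, the numbers were taken to pair these samples and blocked values are printed where a call changes. Each result was recomputed with DESeq2 size factors, without a filter, with DESeq2 1.42.0, limma-voom (limma 3.58.1), the replicate block, the sequencing run or lane as covariate, the main run or its lane 7 alone, only the 6 libraries of a comparison, leave-one-out and a minimum log2 change of 1. Leaving out Col-0 was added after the data were examined. Coordinates and names come from RefSeq TAIR10.1, which matched 31912 genes by identifier.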

Additional observations from a re-analysis of the deposited data

How the results depend on the processing

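The count of 42 genes called between R493A and w.tEDS1 was 41 with DESeq2 size factors, 52 without a filter and 34 with the run as covariate. It was 155 with DESeq2, 23 with limma-voom, 15 with the replicate block, 5 with the lane as covariate, 8 in the main run alone, 2 in lane 7 alone, 77 in the 6 libraries alone, 201 with the replicate block within those 6 (2 residual degrees of freedom), 108 without Col-0 and from 4 to 36 with 1 library left out. The 7 genes called against eds1-2 became 13 without a filter, 31 with DESeq2, 4 with the replicate block, 3 with the lane as covariate, 4 in the main run alone, 1 in lane 7 alone, 1 with the replicate block within 6 libraries and from 3 to 5 with 1 library left out. The causes were not tested, beyond that some settings hold fewer libraries. All 42 and all 7 genes kept their direction in each of these settings. WRKY70 against eds1-2, not called, had a log2 fold change of -0.15, which lay between -0.36 and 0.069 with 1 library left out and was positive without eds1-2 replicate 2. Of the 42 genes, 38 lost their call with at least 1 library left out and 13 moved by over 1.5 times in fold. The replicate block in 12 libraries called no gene beyond the 42 between R493A and w.tEDS1. The block within the 6 libraries did call others, with members of the salicylic acid and EDS1 lists among them. Same-numbered R493A and eds1-2 libraries had correlations of -0.311, -0.210 and 0.284, so these share only a number. With 3 pools per line, genes under about 1 CPM in both lines are limited by their counts.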
